A study of Mus musculus with 8 samples.

Results

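The adrenergic receptor genes Adra1a, Adra1b, Adra2a, Adra2b, Adra2c and Adrb1 were followed across neurons of the mouse stellate ganglion, the sympathetic ganglion that supplies the heart and forelimbs. These 6 genes were chosen by name, not by their values, from a table of 19224 genes in 1303 neurons. They were read across the 8 neuronal subtypes that the authors assigned (NA1a, NA1b, NA1c, NA2, NA3, Ach1, Ach2 and Glut) and across mice. The neurons came from 8 C57BL6/J mice aged 8 to 10 weeks, all of 1 condition, in which a GFP virus had been given to the heart and a tdTomato virus to the front paws. Left and right ganglia were dissociated together, and single cells were sequenced on the 10x Genomics Chromium platform, with each transcript molecule counted by its unique molecular identifier (UMI). The names of 5 mice in the cell table matched 1 labelled sample each. Those mice, with 1002 neurons, served as the replicates, and the 301 neurons under the other 3 mouse names enter pooled values only. The study lists the 5 matched mice under batch 2 and its other 3 under batch 1, so values pooled over all mice mix both batches.

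Adrenergic receptors bind noradrenaline and adrenaline and act through heterotrimeric G proteins. The alpha-1 receptors couple to Gq and phospholipase C, the alpha-2 receptors to the inhibitory proteins Gi and Go, and the beta receptors to the stimulatory protein Gs. On sympathetic neurons, alpha-2 receptors are best known as autoreceptors, through which released noradrenaline reduces further release from the same terminals, while presynaptic beta receptors are known to increase it.

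The depth of the 5 mice ran from 916296 to 1196621 UMIs in 165 to 235 neurons each. Median UMIs per neuron were 8181.5 in NA1a, 3338 in NA1b, 2778.5 in NA1c, 2341.5 in NA2 and 6643.5 in NA3 of these mice, so a scarce transcript had more chance of being seen in an NA1a or NA3 neuron. A total of 73 neurons carried 1 of 21 cell barcodes that occurred in 2 to 5 of the mice, 55 of them in NA2, 15 in Ach2 and 3 in Glut, and 20 of the 21 barcodes had the same subtype in every mouse. No NA1a, NA1b, NA1c, NA3 or Ach1 neuron had such a barcode. The differences called for NA2 and Ach2 are given with and without these neurons, and other values include them unless stated. The neuronal marker transcripts Snap25, Syt1, Pcsk1n and Prph were present in every subtype, at a summed level of 40.6 UMIs per 10000 in NA3 and between 71.0 and 99.1 in the others with at least 10 neurons in a mouse. Cholinergic markers summed to 49.8 UMIs per 10000 in Ach2, 5.46 in Ach1 and 0.457 to 0.847 in the NA subtypes. The noradrenergic markers reached 58.0 in Ach1, the highest value of any subtype. The markers thus went with the label of Ach1 only in part, and its values come from 1 mouse. Satellite glia markers summed to 261 UMIs per 10000 in NA3 and 120 in Ach1, against 6.37 to 13.8 in the other subtypes.

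The alpha-1 receptors were all but undetected. Adra1a gave 1 UMI, in an Ach2 neuron, and Adra1b gave 1 UMI, in an Ach1 neuron, over all 1303 neurons. Adra1d, the other alpha-1 receptor gene, gave 0, a count that leaves room for as many as 0.230% of neurons with a UMI. Each of the pair that was seen occurred in 0.0767% of neurons (exact 95% interval 0.00194% to 0.427%), and no noradrenergic neuron of NA1a, NA1b, NA1c, NA2 or NA3 held a UMI of either.

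Adrb1, the main beta receptor of heart muscle, was equally scarce, with 3 UMIs in 3 neurons (0.230%, exact 95% interval 0.0475% to 0.671%). These neurons were of Ach1, Ach2 and NA1c, and each was among the deep ones, with 17897, 17550 and 17801 UMIs in all. Adra1a, Adra1b and Adrb1 therefore fell under the filter on low values (a mean of at least 0.1 UMIs per 10000 over the mouse and subtype profiles), and 3 of the 6 genes could be tested.

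The alpha-2 receptors carried nearly all of the signal from the 6 genes. Adra2a was seen in 161 neurons (12.4%), Adra2b in 109 (8.37%) and Adra2c in 212 (16.3%). How well the transcripts of each gene were captured was not measured, so these shares do not rank the receptors against each other. Single molecules made up most of the detections, with 1 UMI in 134 of the 161 neurons for Adra2a, 103 of 109 for Adra2b and 175 of 212 for Adra2c, and the most UMIs in a neuron were 6, 2 and 4. At least 1 of the 3 genes was seen in 392 neurons (30.1%), 2 of them in 78 and all 3 in 6. Median depth was 3069 UMIs in the 911 neurons with none of the genes, 5291.5 with 1 gene, 10117 with 2 genes and 9701 in the 6 neurons with all 3. The files used here hold neurons only, so the level that free RNA gives in cells lacking these receptors was not measured.

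**Figure D1:**
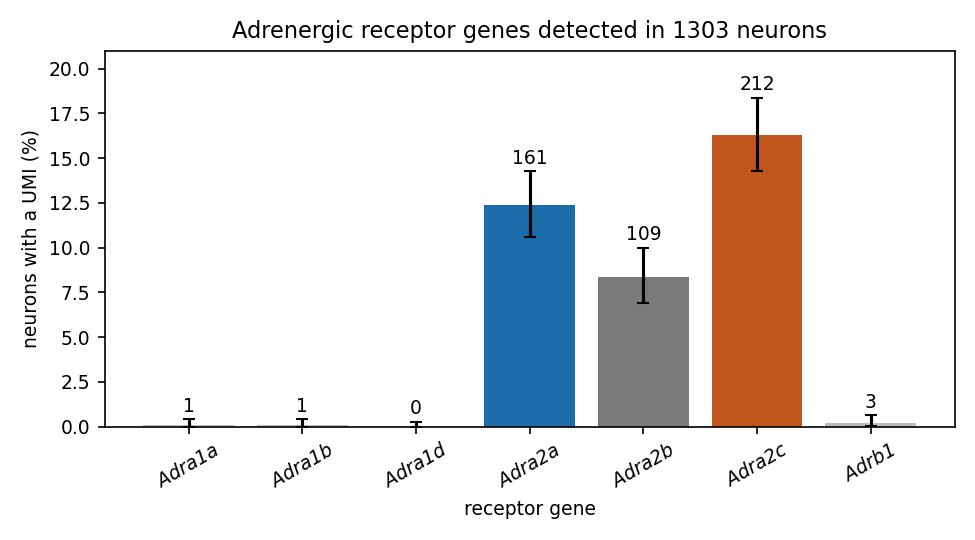
Share of all 1303 neurons with at least 1 UMI of the 6 receptor genes and Adra1d, in percent, with exact 95% intervals as bars and the number of neurons above each column. The 3 alpha-2 genes stand at 8.37% to 16.3%, while Adra1a, Adra1b, Adra1d and Adrb1 were seen in 0 to 3 neurons.

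The genes of the 3 alpha-2 receptors lie on different chromosomes and overlap no other annotated gene in the GRCm38 build (GENCODE vM21). Adra2a (ENSMUSG00000033717) is at chr19:54044151-54048982 on the plus strand, Adra2b (ENSMUSG00000058620) at chr2:127363208-127367221 on the plus strand and Adra2c (ENSMUSG00000045318) at chr5:35278319-35281763 on the plus strand. Adra2b and Adra2c each have 1 exon in the annotation. Adrb1 (chr19:56722199-56733113, plus strand), Adra1a (chr14:66635251-66771168, plus strand) and Adra1b (chr11:43774606-43901210, minus strand) also overlap no other gene.

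Levels were compared among subtypes as the mean UMIs per 10000 over the neurons of a mouse, in the 25 combinations of mouse and subtype with at least 10 neurons. These covered NA1a, NA1b, NA1c and NA2 in 5 mice each, NA3 in 3 and Ach2 in 2. Ach1 had 10 or more neurons in 1 mouse only and Glut in none. Tests were made on log2(level + 0.1) with the mouse as a block, and fold changes on that scale understate the change of low genes. The subtypes had been clustered from the same neurons, so the tests measure how steady a difference was over mice and are not independent evidence for it. Among the 6 subtypes, 2 of the 3 tested members (Adra2a, adjusted p = 0.0011, and Adra2c, adjusted p = 0.037) passed limma's F test, as did 56.4% of the 9398 genes tested, so the count says nothing particular about the receptors. Adra2b did not pass it (adjusted p = 0.24).

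Adra2a was the only tested member called between any of the NA1a, NA1b and NA1c subtypes. This gene encodes the alpha-2A receptor, the main autoreceptor of sympathetic terminals. In NA1b, its level was 0.663, 0.462, 0.402, 1.02 and 0.507 UMIs per 10000 in mice 1 to 5, while in NA1a it was 0.0853, 0.0604, 0, 0.0987 and 0.0830. Each NA1b value lay above every NA1a value. The NA1b neurons of these mice held 71 UMIs of Adra2a in 237 neurons and the NA1a neurons 11 in 182, although NA1a neurons were deeper. The means were 0.611 ± 0.248 and 0.0655 ± 0.0391 UMIs per 10000 (SD, n = 5 mice each), and NA1a was lower than NA1b by a log2 difference of -2.08 (SE 0.46, 95% interval -2.99 to -1.17, limma adjusted p = 0.0034), in 5 of 5 mice. Of all genes, 2.62% were called between NA1a and NA1b, and 1 of the 3 tested members, Adra2a, was among them. The exact two-sided sign-flip permutation test over mice gave p = 0.0625, the smallest that 5 mice allow.

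In NA1c, Adra2a stood at 0.180, 0, 0, 0.117 and 0.198 UMIs per 10000 in mice 1 to 5, again below every NA1b value. The log2 difference of NA1b minus NA1c was 1.93 (SE 0.46, 95% interval 1.02 to 2.85, limma adjusted p = 0.011), higher in 5 of 5 mice, in a comparison that called 1.17% of genes. It missed the threshold without mouse 3 (adjusted p = 0.072) and without mouse 4 (adjusted p = 0.060). NA1a and NA1c were not told apart (log2 difference -0.15, 95% interval -1.06 to 0.77). The neurons under the 3 other mouse names gave a smaller gap between NA1a and NA1b, where the 134 NA1a neurons averaged 0.256 UMIs per 10000 and the 74 NA1b neurons 0.570. Their 23 NA1c neurons were at 0.0244. Their shares of neurons with a UMI, 12.7% of NA1a (exact 95% interval 7.57% to 19.5%) and 17.6% of NA1b (9.70% to 28.2%), overlapped. By the study's list these neurons are of batch 1 and the 5 replicate mice of batch 2. Batch and mouse cannot be told apart in this comparison.

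The NA2 neurons varied more among mice, with 0.422, 0, 0.608, 0.592 and 0.139 UMIs per 10000 of Adra2a. NA1a was lower than NA2 by a log2 difference of -1.16 (SE 0.46, limma adjusted p = 0.038) in 4 of 5 mice, but 37.5% of all genes were called between these subtypes, and the median of all genes differed by 0.30. The values of both groups overlapped, and the call was lost without mouse 1, 3 or 4 (log2 differences of -1.08, -0.75 and -1.01). With the shared barcodes left out, NA2 held 10 or more neurons in 4 mice, its mean moved from 0.352 ± 0.273 to 0.513 ± 0.257 UMIs per 10000, and the log2 difference became -1.78 (adjusted p = 0.0035). Without these neurons, NA1c was also lower than NA2 (-1.63, adjusted p = 0.0053). NA1b was then called higher than NA3 (limma 1.54, adjusted p = 0.036, against 1.40 and 0.067 in the main fit). Neither NA1b nor NA3 held a shared barcode, so only the rest of the fit had changed. In NA3, Adra2a was at 0.331, 0 and 0.258 UMIs per 10000 in mice 2, 4 and 5, and in Ach2 at 0.342 and 0.261 in mice 1 and 4. With the shared barcodes left out, the Ach2 values of mice 1 and 4 were 0.0537 and 0.342.

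From high to low, the mean Adra2a level ran NA1b, NA2, Ach2, NA3, NA1c and NA1a, and no neighbouring pair in that order passed the test. NA1b minus NA2 was 0.92 on the log2 scale (95% interval 0.0032 to 1.83, adjusted p = 0.097).

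Adra2c encodes the alpha-2C receptor, the other autoreceptor of sympathetic terminals, and its order differed from that of Adra2a. In NA1a, its level was 0.373, 0.339, 0.277, 0.177 and 0.321 UMIs per 10000 in mice 1 to 5, and in NA1b it was 0.266, 0.226, 0.294, 1.07 and 0.238. Both ranges overlapped, with 1 mouse far above the others in NA1b. NA1a minus NA1b was -0.21 (SE 0.41, 95% interval -1.03 to 0.62, limma adjusted p = 0.92). The difference of Adra2a minus Adra2c on the log2 scale was lower in NA1a than in NA1b in 5 of 5 mice, by -1.88 ± 0.83 (SD), with an exact permutation p of 0.0625 and 0.28 after adjustment over the 6 pairs of NA1a, NA1b, NA1c and NA2 compared. With 5 mice 0.0625 is the smallest p possible, so this test could not pass 0.05.

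In NA1c, Adra2c was at 0.0508, 0.221, 0.149, 0.0810 and 0.452 UMIs per 10000, and in NA2 at 0.695, 0.321, 0.591, 0.255 and 0.707. NA1c was lower than NA2 in 5 of 5 mice, with overlapping ranges, by a log2 difference of -1.16 (SE 0.41, limma adjusted p = 0.018), where 47.2% of all genes were called. The difference was -1.37 (adjusted p = 0.019) without the shared barcodes, and the call was lost without mouse 1 (-0.85, adjusted p = 0.13) or mouse 3 (-1.08, adjusted p = 0.064). Of the markers of other cells tested between NA1c and NA2, 4 of 10 for satellite glia were higher in NA1c and 1 lower, 2 of 4 for Schwann cells higher and 1 lower, 2 of 4 for fibroblasts higher and 1 of 3 for immune cells higher. The glial markers summed to 8.23 to 24.6 UMIs per 10000 in the NA1c neurons of single mice and 4.40 to 10.8 in NA2, and their part in the receptor differences between NA1c and NA2 was not tested. Adra2c was also lower in Ach2 than in NA2 (-1.63, SE 0.57, limma adjusted p = 0.032, and -1.69, adjusted p = 0.038, without the shared barcodes), a comparison that called 22.3% of genes. That call rests on the 2 mice with enough Ach2 neurons, in each of which 1 UMI of Adra2c was counted, at levels of 0.0413 and 0.117, and it was lost without mouse 3 (-1.57, adjusted p = 0.057) or mouse 5 (-1.58, adjusted p = 0.058), neither of which had an Ach2 profile. The NA3 values were 0.181, 0.139 and 0.181 in mice 2, 4 and 5. From high to low the mean level ran NA2, NA1b, NA1a, NA1c, NA3 and Ach2, with no neighbouring pair called. The place of NA1b rests on mouse 4, without which its mean fell from 0.419 to 0.256 UMIs per 10000, while that of NA1a over all 5 mice was 0.297.

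Adra2b encodes the alpha-2B receptor, which is better known from vascular muscle than as an autoreceptor. Its level was 0.0731, 0.193, 0.161, 0.0616 and 0.0987 UMIs per 10000 in NA1a, 0.172, 0.0880, 0, 0.350 and 0.201 in NA1b, and 0.202, 0.286, 0.353, 0.0336 and 0.439 in NA1c of mice 1 to 5. These ranges overlapped, as did that of NA2 (0 to 0.569). No pair of subtypes was called. NA1a minus NA1b was -0.14 (95% interval -1.07 to 0.79) and NA1a minus NA1c -0.63 (-1.56 to 0.30). No Ach2 neuron out of 62 held a UMI of Adra2b, a count that leaves room for as many as 4.84%, and 2 of 99 NA3 neurons did (2.02%, exact 95% interval 0.246% to 7.11%). Ach2 was called lower than NA2 with the shared barcodes left out (log2 difference -1.71, adjusted p = 0.048), and this fitted value depends on the constant of 0.1 added to each level. NA1c minus NA3 was 0.96 (adjusted p = 0.24) and became 2.06 (adjusted p = 0.019) without mouse 4, whose 14 NA3 neurons held 1 UMI.

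**Figure D2:**
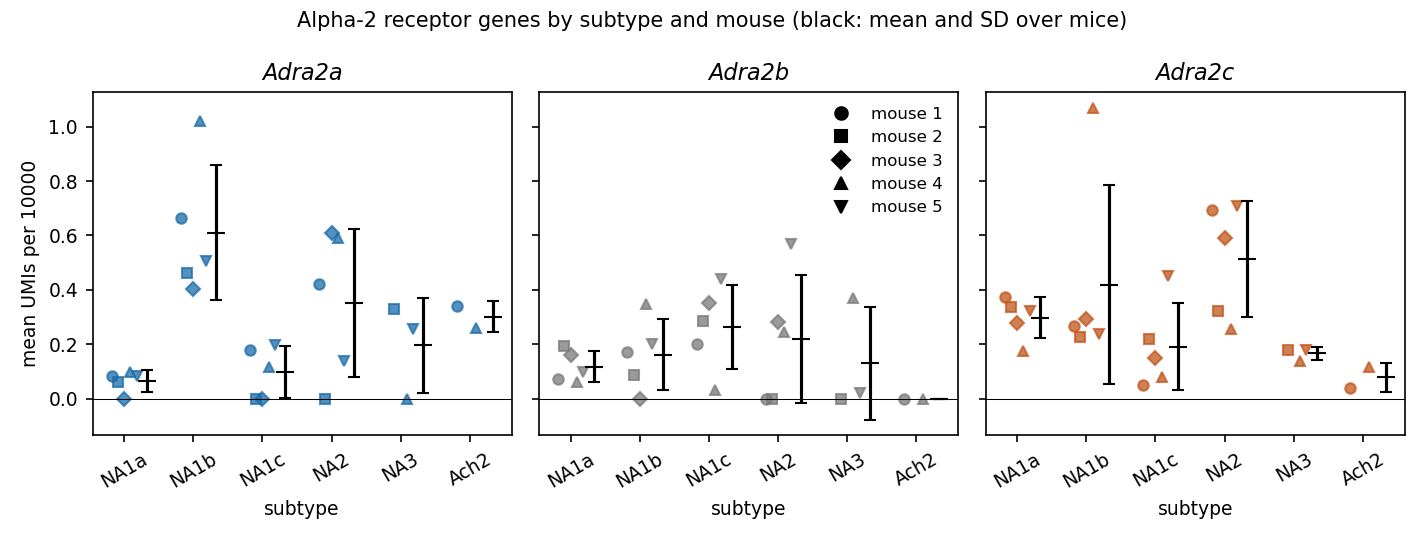
Mean UMIs per 10000 of Adra2a, Adra2b and Adra2c in each subtype, 1 symbol per mouse with at least 10 neurons of that subtype, and the mean with SD over mice in black. The 5 NA1b values of Adra2a (0.402 to 1.02) lie above all NA1a and NA1c values, whereas the ranges of Adra2b and Adra2c overlap among the NA1 subtypes, with mouse 4 at 1.07 for Adra2c in NA1b.

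**Figure D3:**
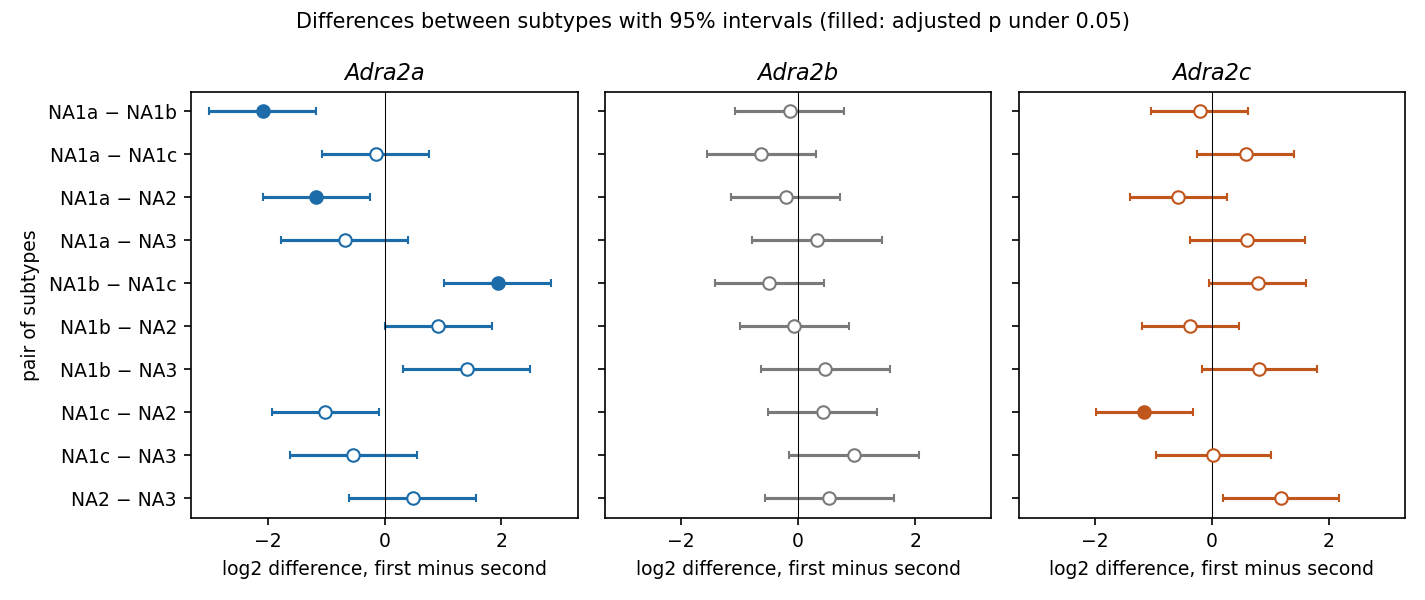
Log2 difference between pairs of subtypes (horizontal axis, first minus second) with 95% intervals from limma, for the NA subtypes. Filled points passed the adjusted threshold of 0.05: 3 pairs for Adra2a, 1 for Adra2c and 0 for Adra2b.

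The share of neurons with a UMI of Adra2a was highest in NA1b before depth was made equal. Over all mice, Adra2a was seen in 28 of 316 NA1a neurons (8.86%, exact 95% interval 5.97% to 12.6%), 61 of 311 NA1b neurons (19.6%, 15.3% to 24.5%) and 10 of 239 NA1c neurons (4.18%, 2.02% to 7.56%). NA2 had 14.9%, NA3 17.2%, Ach1 12.5%, Ach2 9.68% and Glut 13.5%. Without the shared barcodes, NA2 had 17.5%, Ach2 10.6% and Glut 14.7%. After thinning each neuron to 2000 UMIs, the shares were 3.57% of 308 NA1a neurons (1.80% to 6.30%), 6.85% of 248 NA1b neurons (4.04% to 10.7%) and 2.20% of 182 NA1c neurons (0.602% to 5.53%). The order of these 3 subtypes was kept with overlapping intervals, but Ach1 (10.5%), NA2 (8.06%) and Glut (6.90%) then stood above NA1b, and Ach2 was at 3.70% and NA3 at 3.33%. The intervals of these subtypes overlapped that of NA1b. At 2000 UMIs, 17 NA1b neurons and 11 NA1a neurons held a UMI, the limma difference was -0.92 (adjusted p = 0.77), and the gap between NA1a and NA1b was not detectable at this depth.

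For Adra2c, NA1a had the highest unthinned share, 71 of 316 neurons (22.5%, exact 95% interval 17.99% to 27.5%), against 15.8% of NA1b, 11.3% of NA1c and 19.4% of NA2. That rank held only with the shared barcodes kept. Without them, 30 of 120 NA2 neurons held a UMI (25.0%, 17.5% to 33.7%). Thinned to 2000 UMIs, the NA1a share was 5.84% (3.50% to 9.08%), below the 8.47% of NA1b, 7.69% of NA1c and 8.06% of NA2, with overlapping intervals. The unthinned rank of NA1a thus moved with depth and with the shared barcodes of NA2, and no order is read from these shares. Adra2b was seen in 9.18% of NA1a, 8.68% of NA1b, 10.0% of NA1c and 10.3% of NA2 neurons, and in 2.92%, 4.03%, 3.85% and 3.23% after thinning. Of 37 Glut neurons, which formed no group of replicates, 16.2% held a UMI of Adra2b (6.19% to 32.0%). Intervals and limits cover counting error only.

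**Figure D4:**
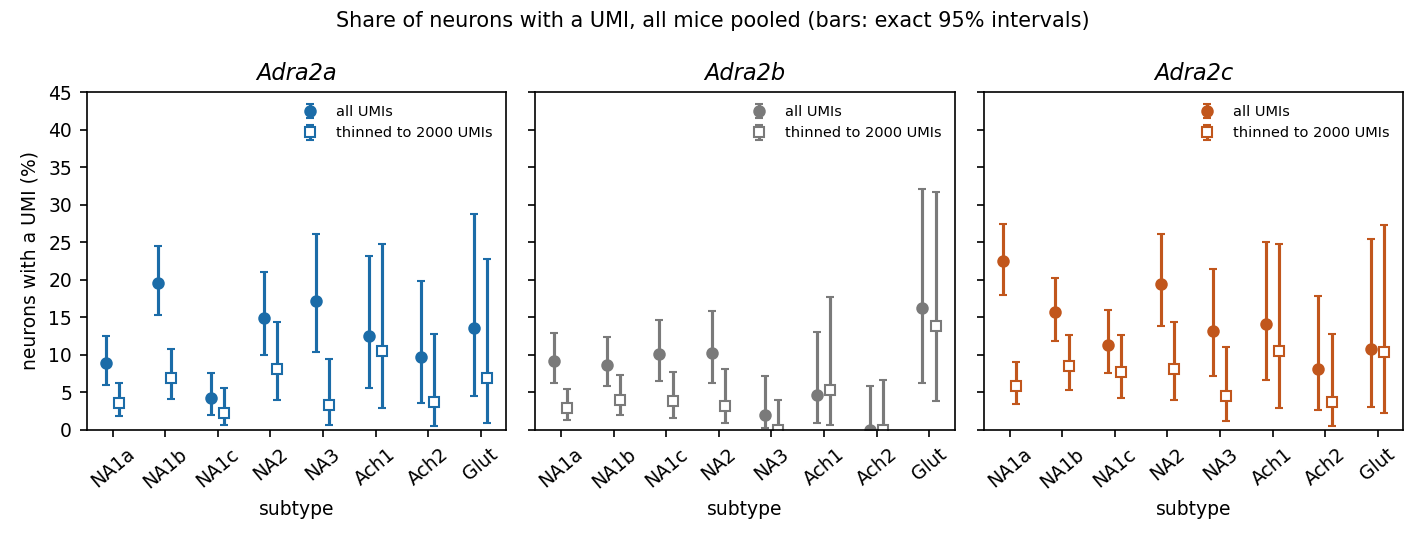
Share of neurons with a UMI of each alpha-2 gene by subtype, all mice pooled, in percent, before (filled circles) and after (open squares) thinning to 2000 UMIs, with exact 95% intervals. For Adra2a the NA1b interval (15.3% to 24.5%) lies above those of NA1a and NA1c before thinning and overlaps both after it.

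The alpha-2 genes were seen together in somewhat more neurons than their separate shares in each mouse and subtype would give. For Adra2a and Adra2b, however, the expected count lay within the counting interval. Adra2a and Adra2c were both seen in 33 of 1002 neurons against 22.0 expected (exact Poisson interval of the count 22.7 to 46.3), Adra2b and Adra2c in 23 against 14.3 (14.6 to 34.5), and Adra2a and Adra2b in 15 against 8.59 (8.40 to 24.7). Deeper neurons have more chance to show any pair. Within NA1b, the median depth was 7447 UMIs in neurons with Adra2a and 3018 in those without. After thinning to 2000 UMIs, the counts were 3 against 2.27 expected, 1 against 1.75, and 3 against 1.06, so no excess could be read at equal depth.

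The study divided the neurons of the subtypes it called cardiac (NA1a, NA1b and NA3) by their level of Npy, the gene of the co-transmitter neuropeptide Y. With the lowest 30% taken as low (up to 5.56 UMIs of Npy per 10000 neuron UMIs) and the highest 30% as high (from 52.8), Adra2a was at 0.759, 0.667, 0.372, 0.644 and 0.556 UMIs per 10000 in the low neurons of mice 1 to 5. In the high neurons, it was at 0.103, 0.0251, 0, 0.0697 and 0.152. The groups did not overlap, and the medium neurons lay between them on average, with 0.340 ± 0.170 (SD, n = 5 mice). The log2 difference of high minus low was -2.09 (SE 0.35, 95% interval -2.80 to -1.38, limma adjusted p = 1.4e-05), lower in 5 of 5 mice, in a comparison that called 6.37% of 9496 genes. The exact permutation p was 0.0625, the smallest that 5 mice allow.

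Subtype and Npy cannot be told apart in that fit, because 139 of the 154 high neurons were NA1a and 118 of the 154 low neurons were NA1b. Within NA1b, Adra2a was seen in 33 of 118 low neurons (28.0%, exact 95% interval 20.1% to 37.0%) and 15 of 111 medium neurons (13.5%, 7.77% to 21.3%), at mean levels of 0.685 and 0.493 UMIs per 10000 and median depths of 6262.5 and 2637 UMIs. Of the 8 NA1b neurons in the high stratum, 0 held a UMI, which is too few to set a useful limit. Within NA1a, 8 of 139 high neurons (5.76%, 2.52% to 11.03%) and 3 of 38 medium neurons (7.89%, 1.66% to 21.4%) held one.

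No difference with Npy was called for Adra2b or Adra2c. High minus low was -0.10 for Adra2c (SE 0.35, 95% interval -0.80 to 0.59, limma adjusted p = 0.93) and -0.19 for Adra2b (SE 0.39, -0.97 to 0.58, adjusted p = 0.87). Whether either gene fell as much as Adra2a could not be tested, because the added constant of 0.1 limits the fall from a low level. Mean levels in the low neurons were 0.133 for Adra2b and 0.338 for Adra2c, against 0.600 for Adra2a. Even with no UMI in any high neuron, the fitted fall of Adra2b or Adra2c would have been smaller than that of Adra2a.

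**Figure D5:**
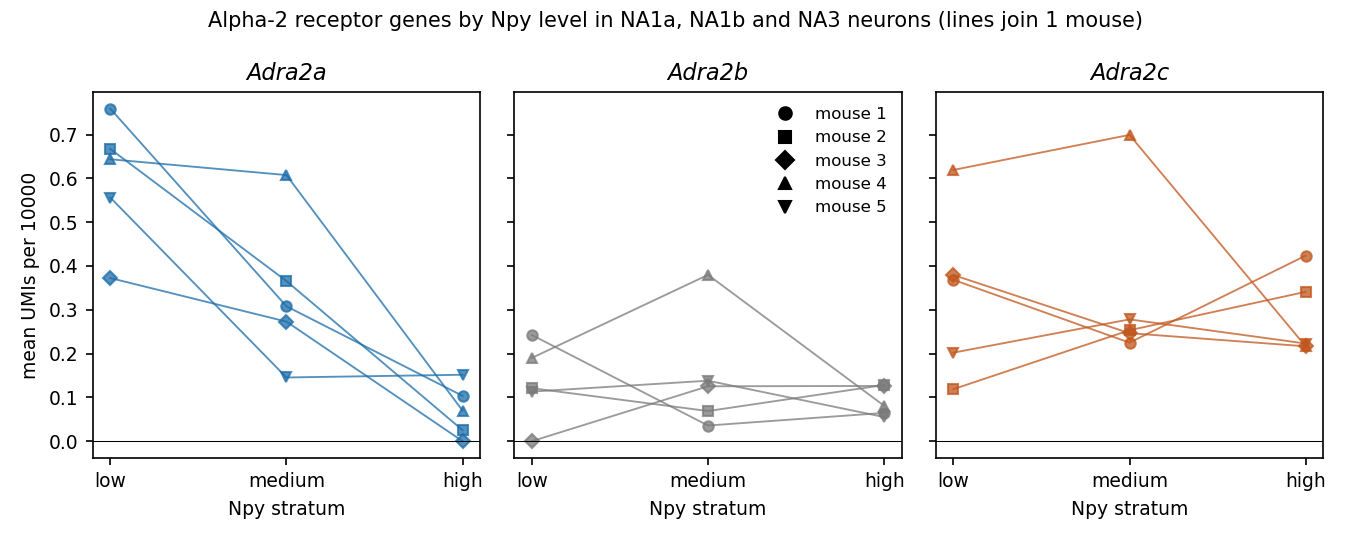
Mean UMIs per 10000 of Adra2a, Adra2b and Adra2c in the low, medium and high Npy neurons of NA1a, NA1b and NA3, with lines joining the values of 1 mouse. Every mouse has less Adra2a in its high than in its low neurons (all low values at least 0.372, all high values at most 0.152), and the lines of Adra2b and Adra2c cross.

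The genes whose pattern over the 25 profiles was most like that of Adra2a were Colq (Pearson r = 0.77), which encodes the collagen tail of acetylcholinesterase, Ltk (r = 0.70), a receptor tyrosine kinase, and Edn3 (r = 0.69), the gene of endothelin 3. Colq was at 0.464 ± 0.203 UMIs per 10000 in NA1b, 0.0217 ± 0.0282 in NA1a and 0.0176 ± 0.0393 in NA1c (SD, n = 5 mice). Ltk was at 0.660 ± 0.390, 0.0634 ± 0.0593 and 0.0514 ± 0.0773 in these subtypes, and Edn3 at 0.534 ± 0.196, 0.0324 ± 0.0526 and 0.0713 ± 0.159. They were not particular to NA1b. In NA2 (5 mice) and Ach2 (2 mice), Colq averaged 0.200 and 0.428, Edn3 0.422 and 0.391, and Ltk 0.161 and 0.172 UMIs per 10000. For Adra2c, the nearest genes included Vkorc1l1 (r = 0.71) and Tmem35a (r = 0.69), a chaperone of nicotinic receptors. For Adra2b they were Rab40c (r = 0.72), the thyroid hormone receptor gene Thra (r = 0.71) and Gtf3c4 (r = 0.71). The receptors themselves were further apart, with r = 0.28 between Adra2a and Adra2c, 0.34 between Adra2b and Adra2c and -0.10 between Adra2a and Adra2b. These correlations describe profiles that share mice and depth.

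Genes of the proteins through which alpha-2 receptors act were measured in every subtype. Gnao1, the gene of the alpha subunit of Go, was at 3.67 ± 0.679 UMIs per 10000 in NA1a, 5.23 ± 1.71 in NA1b and 6.41 ± 2.30 in NA1c (SD, n = 5 mice), and Cacna1b, the gene of the N-type calcium channel that alpha-2 receptors inhibit, at 2.63 ± 0.606, 3.37 ± 0.737 and 4.10 ± 0.673. Neither was called between NA1a and NA1b or between NA1b and NA1c. In 8 lists of adrenergic signalling and noradrenaline handling genes, 37 of the 51 genes tested passed the F test among the 6 subtypes, against 56.4% of all genes. These were 3 of 5 inhibitory G protein genes (Gnao1, Gnaz and Gnai3), 2 of 4 of Gq, G11 and phospholipase C (Plcb4 and Gnaq), 1 of 2 stimulatory G protein genes (Gnas), 9 of 11 beta and gamma subunits (Gng5, Gnb1 and Gng3 first), 2 of 5 receptor kinases and arrestins (Grk3 and Grk2), 11 of 14 RGS genes (Rgs11, Rgs6 and Rgs7 first), 2 of 3 channels (Cacna1a and Cacna1b) and all 7 genes of noradrenaline handling (Slc18a2, Slc6a2 and Th first).

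Between NA1a and NA1b, 3 of the 51 genes were called higher in NA1a and 1 was called lower, in a comparison that called 2.62% of all genes. The median log2 difference was -0.06 over the lists and 0.00 over all genes. The gene that was lower, like Adra2a, was Rgs8, which encodes a GTPase-activating protein for G protein alpha subunits. It was named after its values were seen, as was Rgs5. Rgs8 was at 0.398 ± 0.0568 UMIs per 10000 in NA1b, 0.0559 ± 0.0411 in NA1a and 0.0519 ± 0.0576 in NA1c (SD, n = 5 mice), and every NA1b value (0.297 or more) lay above all NA1a values (0.1004 or less). Its log2 difference of NA1a minus NA1b was -1.71 (SE 0.39, limma adjusted p = 0.0063). Plcb4, a phospholipase C beta gene, had the opposite pattern, with 4.56 ± 0.704 in NA1a, 2.18 ± 0.519 in NA1b and 5.12 ± 0.746 in NA1c (1.05, SE 0.28, adjusted p = 0.021, for NA1a minus NA1b). Gng5 (1.14, adjusted p = 0.015) and Rgs5 (1.44, adjusted p = 0.028) were also higher in NA1a than in NA1b. Rgs5 is a pericyte marker as well, and the summed level of 6 smooth muscle and pericyte markers, Rgs5 included, was 0.630 UMIs per 10000 in NA1a (0.178 to 1.51 in single mice) and 0.1195 in NA1b (0.0217 to 0.204). The part of such cells in the Rgs5 values was not tested.

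Between NA1b and NA1c, 2 of the 51 genes were called higher in NA1b and 1 lower, in a comparison that called 1.17% of all genes. Gnas, the gene of the Gs alpha subunit, was higher in NA1b, at 49.3 ± 9.90 UMIs per 10000 against 27.0 ± 4.61 (log2 difference 0.86, SE 0.15, limma adjusted p = 1.5e-04). Rgs8 was likewise higher in NA1b (1.79, adjusted p = 0.0045) and Plcb4 lower (-1.22, adjusted p = 0.0072). The remaining genes tested in the lists were not called.

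Of the 10 satellite glia markers tested, 0 were called between NA1a and NA1b by limma at the adjusted threshold. With 2.62% of all genes called there, a count of 0 in 10 says little about glial transcripts. Rgs5, the 1 smooth muscle and pericyte marker tested, was called. The summed glial level was 6.81 to 8.77 UMIs per 10000 in the NA1a neurons of single mice and 3.22 to 21.8 in NA1b, and leaving out the 10% of neurons with the most glial transcripts, which removed the NA3 profiles, gave -2.08 for Adra2a (adjusted p = 0.0013). Between NA1b and NA3, by contrast, all 10 glial markers were called higher in NA3, where 1511 of the 9398 genes tested were called. Their part in any receptor difference involving NA3 was not tested.

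The retrograde labels reached few neurons. GFP was seen in 6 and tdTomato in 20, with 1 neuron holding both. Of the 25 labelled neurons, 2 held a UMI of Adra2a (8.00%, exact 95% interval 0.984% to 26.0%), 2 of Adra2b and 2 of Adra2c, against 12.4%, 8.37% and 16.4% of the 1278 unlabelled neurons, at median depths of 2942 and 3711 UMIs. The 1 GFP neuron with Adra2a was of NA3, and the 1 tdTomato neuron with Adra2a was of NA1b. Receptor detection in heart-labelled and paw-labelled neurons could not be compared at these numbers.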

How the data were processed

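The deposited table of natural log values had 1 row per neuron and 1 column per gene, and a deposited cell table gave mouse and subtype. According to the submitters' processing notes and the study's methods, the authors aligned reads with Cell Ranger 2.1.1 to mm10 (GRCm38.98, with reporter sequences added). Their stated limits were 500 to 6000 genes per cell, 20000 UMIs and 15% mitochondrial RNA, and subtypes were clustered in Seurat after integration of the samples (Scanpy is also named). Doublets were not treated here. The natural log was undone to UMIs per 10000, and UMIs recovered from these lay within 0.01 of a whole number for 100% of values above 0. Matching of mouse names to the labels gave 5 replicates.

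Means over the neurons of each mouse and subtype (at least 10) were fitted with limma 3.58.1 (R 4.3.3) on log2(mean + 0.1), with an intensity trend, the mouse as a fixed block and Benjamini-Hochberg adjustment over all genes tested (threshold 0.05). Genes needed a mean of 0.1 over profiles. The block is the animal, since the subtypes of a mouse come from the same ganglia. Neurons of at least 2000 UMIs were thinned at random to 2000 for equal depth, and the others were left out of thinned values. Shares carry Clopper-Pearson 95% intervals, and a count of 0 allows 3 neurons. Single receptors were also tested by exact sign-flip permutation over mice (SciPy 1.17.1). The fit was tested on simulated data. Named genes were the 6 receptors, other adrenergic receptor genes present, the 3 most correlated genes for each tested receptor, and in each signalling list the 3 with the smallest F-test p. Some genes named by this rule are not reported here. The members and lists were chosen with earlier results of these data known.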

Additional observations from a re-analysis of the deposited data

Results flagged for a closer look

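The level of Adra2c in the NA1b neurons of mouse 4 was 1.07 UMIs per 10000, far above the other 4 mice, whose values ran from 0.226 to 0.294 (median of the 5 mice 0.266). Its gap to the nearest mouse was 0.919 of the whole range, above Dixon's 95% critical value for 5 values. The same mouse stood apart for Adra2c in the neurons of medium Npy, with 0.699 UMIs per 10000 against a median of 0.253 (gap 0.888 of the range). The groups overlap, since most medium Npy neurons are NA1b or NA3. Of 21 groups examined, 2 were marked, where chance gives about 1 in 20, or 1.05. In NA1b, 14 of the 33 neurons of mouse 4 held 22 UMIs of Adra2c, and mouse 4 also had the highest NA1b value of Adra2a (1.02).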

How the results depend on the processing

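Among the alternatives run, Adra2a was lower in NA1a than in NA1b in all 18 and past the threshold in 16. It missed it with profiles of at least 5 neurons (-2.08, adjusted p = 0.076) and after thinning to 2000 UMIs (-0.92). NA1b minus NA1c missed it with no filter on low genes and with 5 neurons (1.93 in both) and after thinning (1.45), and ran from 1.79 to 2.16 with each mouse left out. High minus low Npy missed it after thinning only (-0.93), so the count of receptors called there went from 1 to 0. Receptors passing the F test fell from 2 to 1 with no filter, averaged natural log values, weights by neurons, NA1a, NA1b, NA1c and NA2 alone, and, chosen after seeing the data, without shared barcodes, to 0 after thinning, and ran from 1 to 2 with each mouse left out. With 5 neurons the 2 were Adra2a and Adra2b. The 5 calls between pairs became 2 with no filter, 3 with averaged logs, 0 after thinning, 8 without shared barcodes and 2 to 7 with each mouse left out. Without the replicate block no call on a receptor was lost.

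All genes called between NA1a and NA1b numbered 246, and 153 with no filter, 380 with a pseudocount of 1, 40 with 5 neurons, 545 with averaged logs, 72 thinned, 600 weighted and 110 to 191 with each mouse left out. Between NA1b and NA1c, 110 genes became 34 with 5 neurons, 174 with summed UMIs, 40 thinned and 69 to 121 with each mouse left out. Between high and low Npy, 605 became 347 with no filter, 334 without the replicate block, 235 thinned and 385 to 562 with each mouse left out. The causes of these shifts were not tested. The mean share of neurons with Adra2a went from 6.65% to 2.42% thinned and 0% at 2 UMIs or more in NA1a, and from 22.3% to 5.38% and 7.14% in NA1b. The ratio of observed to expected neurons with Adra2a and Adra2c kept within its counting interval (1.32 to 1.56), and that of Adra2a and Adra2b ran from 1.44 to 2.84. That of Adra2b and Adra2c went from 1.61 to 0.572 thinned, outside the interval of the unthinned count. The thinned value rests on 1 neuron against 1.75 expected (exact Poisson interval of the count 0.0253 to 5.57), too few to show a shift. At 1 UMI in most positive neurons, depth limits every share.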
